A study of Mus musculus with 4 samples.

Results

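The TGF-β branch of the TGF-β and BMP superfamily is described here by 10 genes, fixed as a list of names, out of the 23906 gene symbols listed in each library. They are the ligand gene *Tgfb1*, the receptor and co-receptor genes *Tgfbr1*, *Tgfbr2*, *Tgfbr3* and *Eng*, the signal transducers *Smad2* and *Smad3*, the inhibitory *Smad7*, and *Ski* and *Skil*, which encode repressors that bind Smad proteins. RNA was sequenced from LSK-SLAM cells, the Lin-, Sca1+, cKit+ cells with the CD150+ CD48- surface profile in which haematopoietic stem cells (HSCs) are enriched. The 4 libraries came from fetal liver (FL) of embryonic day 14 and from adult bone marrow (BM), each tissue sorted into GFP+ and GFP- cells, with 1 library per group and hence no replicates. All 4 carry the BRE-GFP transgene, a GFP reporter under a BMP responsive element that Smad1 and Smad5 activate, kept on the C57BL/6 background. The embryos came from heterozygous transgenic males mated with wild-type females, and data of 1 transgenic line were shown. The age of the adult mice that were sequenced and the number of animals behind a library are not given in the sources used here.

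TGF-β is secreted in a latent form, and once released it binds the type II receptor encoded by *Tgfbr2*, which then phosphorylates the type I receptor encoded by *Tgfbr1*. The active receptor pair phosphorylates Smad2 and Smad3, which enter the nucleus with Smad4, whereas BMP receptors act through Smad1 and Smad5, the branch that the GFP reporter reads. In adult BM the TGF-β pathway is known for holding HSCs in quiescence. Smad7 blocks the receptors, Ski and its relative SnoN (the product of *Skil*) hold Smad targets repressed, and both *Smad7* and *Skil* are themselves known TGF-β target genes.

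The values are FPKM, fragment numbers scaled to transcript length and to the mapped reads of a library, which the authors normalized across the 4 libraries. Between 12372 and 17345 symbols were above 0 per library, and the FPKM summed to between 541453 and 1000848. The study gives the uniquely mapped reads of each library. Read counts per gene were not available, and the counting error of a single FPKM was not estimated. All 14 housekeeping genes examined were above 0 in every library. The labels were checked against marker lists, and the BM GFP+ library stood apart. Its summed FPKM of 10 stem cell and sort markers was 422, against 708 in BM GFP- and 935 (GFP+) and 944 (GFP-) in fetal liver, and *Procr*, a surface marker of HSCs, was listed at 0 in it alone, against 60.8 in BM GFP- and 106 and 113 in the FL libraries. Of the 422, *Ly6a* alone made 286, against 146 in BM GFP- and 19.7 (GFP+) and 46.3 (GFP-) in fetal liver. The other 9 markers were all lower in BM GFP+ than in BM GFP- cells. Its 7 B cell markers summed to 3386 (895 in BM GFP-, 96.3 in FL GFP+ and 43.5 in FL GFP-), its 8 granulocyte markers to 60712 (16245, 366 and 181) and its 7 erythroid markers to 20421 (2842, 992 and 907). The T and NK cell (7 markers), macrophage (7 measured), megakaryocyte and platelet (7) and stromal (6) lists were also higher in both BM libraries than in both FL libraries, with ranges of 358 to 569, 99.0 to 277, 398 to 495 and 12.9 to 77.2 in the BM against 10.1 to 17.9, 42.7 to 46.9, 61.9 to 82.6 and 0.494 to 5.91 in the FL. Hepatocyte markers (7) summed to 452 in FL GFP+ cells and to between 54.6 and 79.8 in the other libraries. The lineage cocktail of the sort held antibodies to CD3, B220, Ter119 and Ly6c, and to CD11b for adult BM. Of the genes of the branch that the reporter reads, *Id1*, a direct BMP target, was higher in the GFP+ library of each tissue (109 against 56.5 in fetal liver, 70.4 against 17.5 in marrow), whereas the BMP receptor gene *Bmpr2* was higher in the GFP- library of each (2.02 against 0.120, and 0.251 against 0.0381). For *Bmpr* genes the study reports expression in GFP+ cells and none in GFP- cells, the reverse of the *Bmpr2* order here. The GFP transcript was not analysed here, the GFP labels were used as given, and whether each library carries the right label was not tested. The part of these cell types in the values below was not tested, and in bulk RNA fewer cells of a type and less RNA per cell cannot be told apart.

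**Figure D1:**
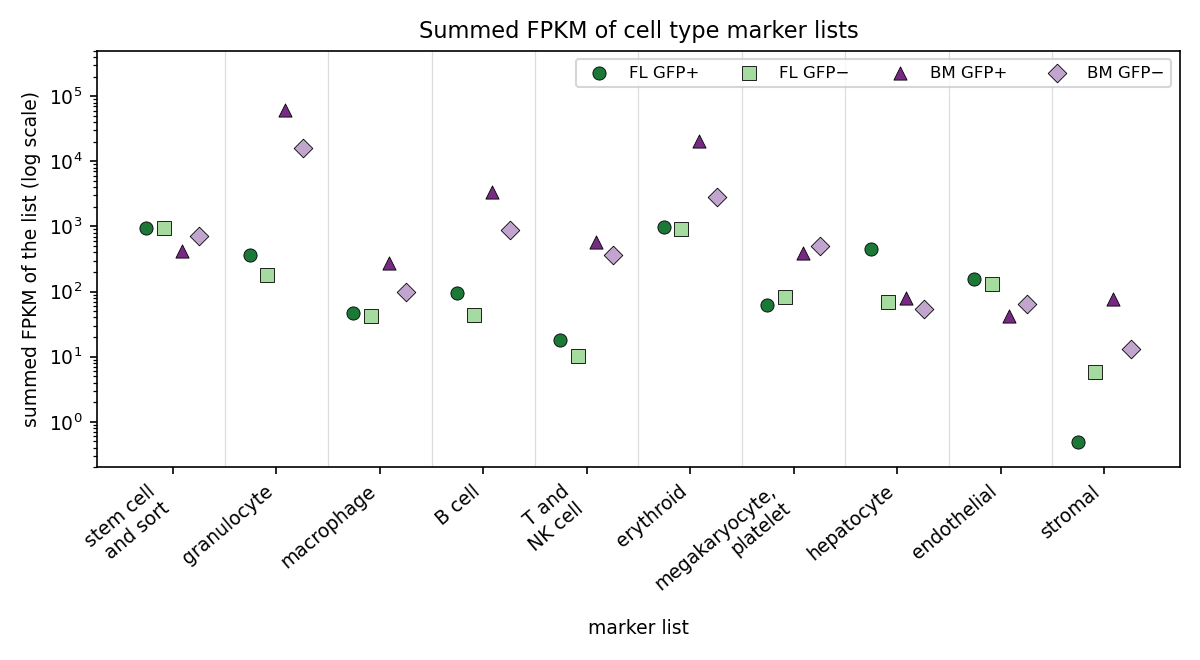
Summed FPKM (log scale) of each cell type marker list, with 1 point per library of LSK-SLAM cells (FL or BM, GFP+ or GFP-). The BM GFP+ library has the lowest stem cell sum, 422, and the highest B cell sum, 3386.

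The 3 receptor and co-receptor genes for which a promoter sequence was found are shown by the 250 bases before their RefSeq transcription start. *Tgfbr1* and *Eng* were lower in both BM libraries and *Tgfbr2* was not. *Tgfb1* and *Tgfbr3*, not shown, were lower in both as well. Any part of these sequences in the values was not tested. Coordinates are those of GRCm38.p6, and each sequence is written 5′ to 3′ on the strand of its gene. *Tgfbr1* lies on the plus strand of chromosome 4 (47353222 to 47414926), *Tgfbr2* on the minus strand of chromosome 9 (116087695 to 116175363) and *Eng* on the plus strand of chromosome 2 (32646595 to 32682669). Capitals mark CAGAC, the core of the CAGA box that Smad3 is known to bind, and GGGCGG, the GC box, on either strand.
*Tgfbr1*, chr4:47352972-47353221: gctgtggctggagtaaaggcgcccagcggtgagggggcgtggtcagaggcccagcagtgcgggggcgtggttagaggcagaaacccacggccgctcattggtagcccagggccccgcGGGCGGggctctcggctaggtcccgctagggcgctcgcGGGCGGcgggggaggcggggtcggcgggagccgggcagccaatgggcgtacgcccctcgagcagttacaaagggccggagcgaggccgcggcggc
*Tgfbr2*, chr9:116175364-116175613: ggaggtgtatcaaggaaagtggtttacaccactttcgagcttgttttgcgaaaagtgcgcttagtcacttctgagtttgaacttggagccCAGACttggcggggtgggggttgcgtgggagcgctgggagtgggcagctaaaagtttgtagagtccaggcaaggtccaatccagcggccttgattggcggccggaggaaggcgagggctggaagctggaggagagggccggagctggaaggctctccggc
*Eng*, chr2:32646345-32646594: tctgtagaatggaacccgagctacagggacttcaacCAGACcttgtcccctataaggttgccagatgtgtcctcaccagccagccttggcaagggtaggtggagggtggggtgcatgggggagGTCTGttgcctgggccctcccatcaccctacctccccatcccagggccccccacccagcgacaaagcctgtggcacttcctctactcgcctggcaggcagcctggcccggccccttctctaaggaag

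The *Tgfbr1* window held 2 GC boxes and no CAGAC, and 74.8% of its bases were G or C. RefSeq has a second, downstream start for *Tgfbr1*, whose window (chr4:47385966-47386215) held 1 CAGAC and no GC box, with a G and C content of 52.8%. The *Tgfbr2* window held 1 CAGAC and the *Eng* window 2, neither held a GC box, and their G and C content was 58.4% and 62.4%. CAGAC occurred in 42.2% and GGGCGG in 32.7% of all 32851 RefSeq windows of this length, and their median G and C content was 52.4%. Searched as well on both strands, and found in none of the 3 windows, were the palindromic Smad site GTCTAGAC (0.167% of all windows) and AGATAA, a site of the zinc finger factors of erythroid cells and HSCs (9.99%). An ETS factor site, CCGGAAG, was present in 6.91% of all windows and in none of these. No motif searched contains another. Both *Tgfbr1* windows overlap the annotated gene *Gm32435*, and the windows of *Tgfbr2* and *Eng* overlap no other RefSeq gene.

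*Tgfb1* (chromosome 7, 25687002 to 25705077), the gene of the ligand, stood at an FPKM of 2.48 (GFP+) and 2.54 (GFP-) in fetal liver and of 0.307 (GFP+) and 1.23 (GFP-) in marrow. Its level was low throughout, and both BM libraries lay below both FL libraries. *Tgfbr1*, the gene of the type I receptor, read 17.4 (GFP+) and 14.2 (GFP-) in fetal liver and 4.81 (GFP+) and 3.18 (GFP-) in marrow, again with the tissues apart. *Tgfbr2*, the gene of the type II receptor that binds the ligand first, read 17.1 (GFP+) and 17.4 (GFP-) in fetal liver and 37.5 (GFP+) and 13.6 (GFP-) in marrow. Its values in both FL libraries and BM GFP- lay within 1.27-fold of each other, and BM GFP+ stood above them.

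*Tgfbr3* (chromosome 5, 107106567 to 107289629) encodes betaglycan, a co-receptor that presents ligand to the type II receptor, and read 6.64 (GFP+) and 9.30 (GFP-) FPKM in fetal liver against 2.47 (GFP+) and 4.19 (GFP-) in marrow, with no overlap between the tissues. *Eng* encodes endoglin (CD105), a co-receptor found on endothelium and on HSCs, and was the most abundant of the 10 genes in all libraries but BM GFP+, with 178 (GFP+) and 145 (GFP-) in fetal liver and 25.7 (GFP+) and 57.8 (GFP-) in marrow. In the FL libraries *Eng* stood at percentile 97.5 and 97.4 of all symbols, and in the BM at 82.3 (GFP+) and 91.0 (GFP-). The 7 endothelial markers, summed, moved with it, at 154 (GFP+) and 129 (GFP-) in fetal liver and 42.7 (GFP+) and 64.8 (GFP-) in marrow. Of these, *Tek* and *Emcn*, which HSCs also express, were between 36.6 and 65.8 in fetal liver and at or below 16.4 in marrow, and *Pecam1*, also found on blood cells, was between 38.0 and 45.1 in all libraries. *Cdh5*, *Stab2*, *Kdr* and *Lyve1* reached at most 1.77, 0.556, 3.84 and 3.46, each of them in a GFP- library. The part of endothelial cells in the *Eng* values was not tested.

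*Smad2* (chromosome 18, 76241090 to 76311748) stood at 6.76 (GFP+) and 4.26 (GFP-) FPKM in fetal liver and 1.96 (GFP+) and 5.41 (GFP-) in marrow. BM GFP+ was thus low and the other libraries overlapped between tissues. *Smad3* (chromosome 9, 63646766 to 63757994) was the higher of the pair in every library, with 13.97 (GFP+) and 25.1 (GFP-) in fetal liver and 5.24 (GFP+) and 12.6 (GFP-) in marrow. In each tissue its GFP- library was the higher.

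*Smad7* (chromosome 18, 75367365 to 75395935) was in fetal liver listed at 0 (GFP+) and at 0.489 (GFP-) FPKM, and in marrow it read 3.83 (GFP+) and 1.14 (GFP-). Of the 1698 other genes within 2-fold of its FL GFP- value, 871 (51.3%) were also at 0 in FL GFP+ cells, so that absence and missed detection could not be told apart. *Ski* (chromosome 4, 155154075 to 155222535) had 11.3 (GFP+) and 8.38 (GFP-) in fetal liver and 6.26 (GFP+) and 0.840 (GFP-) in marrow. BM GFP- was thus low and the other 3 were within 1.81-fold of each other. *Skil* (chromosome 3, 31095058 to 31122923) had 0.829 (GFP+) and 0.955 (GFP-) in fetal liver and 3.47 (GFP+) and 1.59 (GFP-) in marrow, with both BM libraries above both FL libraries, the opposite order to *Ski*.

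**Figure D2:**
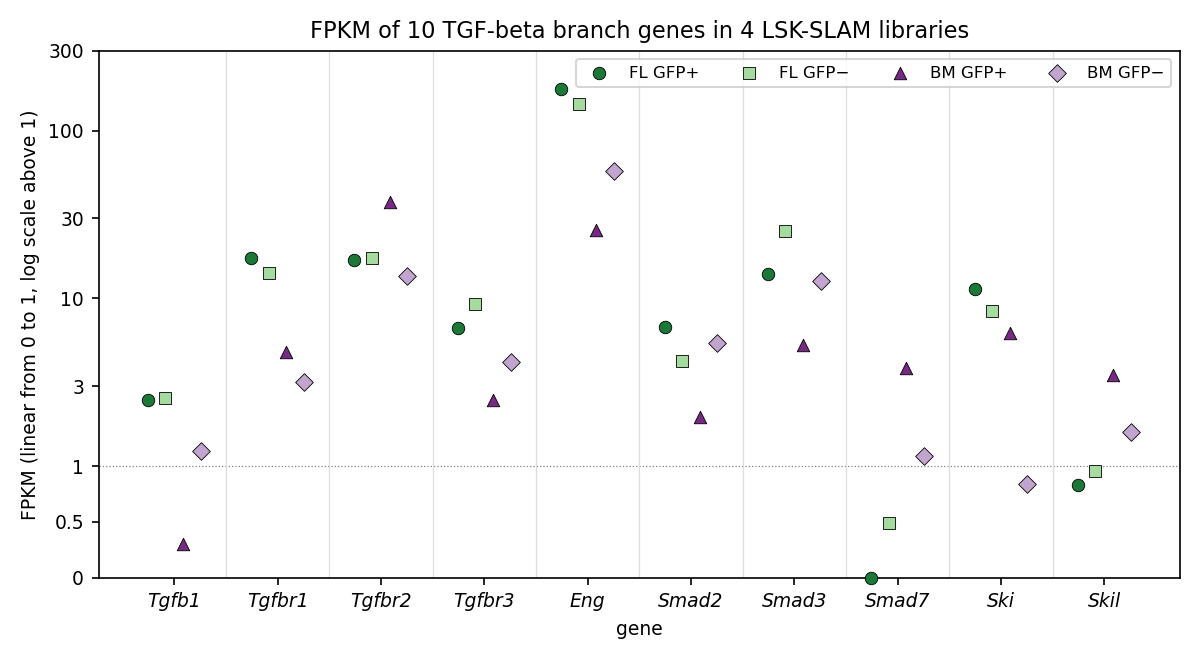
FPKM of the 10 genes in the 4 LSK-SLAM libraries, 1 point per library, on an axis that is linear from 0 to 1 and logarithmic above 1. *Eng* is the highest gene except in BM GFP+, where *Tgfbr2* is, at 37.5, and *Smad7* lies at 0 in FL GFP+.

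Whether the branch differs between FL and BM was asked within each GFP fraction, by whether the FPKM of a gene in one library was more than 2 times that in the other. The study set this fold for GFP+ against GFP- cells, required in both tissues, and it is applied here to each pair of libraries. This is a threshold without a test, since each group had 1 library, and it was applied where 1 or both of the libraries compared reached an FPKM of 1. The ligand gene and all receptor genes but *Tgfbr2* were lower in the BM. *Tgfb1*, *Tgfbr1*, *Tgfbr3* and *Eng* were past 2-fold lower in both fractions, and *Smad7* alone was past 2-fold higher in both. In the GFP+ fraction 9 of the 10 genes were past 2-fold, 6 lower and 3 higher in the BM, where 58.7% of 12120 genes were past it (25.1% lower, 33.6% higher). With an FPKM of 5 required instead, the counts were 6 of 7 genes and 53.8% of all genes. In the GFP- fraction, which leaves out the BM GFP+ library, 6 of 10 were past it, 5 lower and 1 higher, where 37.9% of 12703 genes were (19.3% lower, 18.6% higher), and with an FPKM of 5 required 4 of 7 genes and 29.7%. With folds taken on FPKM + 1, which weighs low genes less, 3 of the 10 were past 2-fold in the GFP- fraction, near the 29.9% of all genes. *Tgfb1* and *Tgfbr3* were not among these 3. In the GFP+ fraction the counts on this scale were 9 of 10 and 54.9% of all genes. Each library enters both a tissue and a GFP comparison. Over the 11214 genes measured in both fractions, 7.7% were past 2-fold lower and 11.9% past 2-fold higher in the BM in both, against 4 and 1 of the 10 genes.

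*Eng* was 6.94-fold lower in BM GFP+ than in FL GFP+ cells and 2.51-fold lower in BM GFP- than in FL GFP- cells. *Tgfbr1* differed by a similar factor in both fractions, 3.61-fold in GFP+ and 4.46-fold in GFP- cells. *Tgfbr3* was 2.69-fold and 2.22-fold lower in the BM, and *Tgfb1* 8.08-fold and 2.07-fold lower, from FPKM of 2.48 and 2.54. These 4 genes are the ligand, the type I receptor and both co-receptors.

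*Tgfbr2* did not follow them. It was 2.198-fold higher in BM GFP+ than in FL GFP+ cells and 1.27-fold lower in BM GFP- than in FL GFP- cells. With every library rescaled to the same FPKM total, its difference in the GFP+ fraction went from 1.09 to 0.49 on the log2(FPKM + 1) scale and was no longer past 2-fold. The B cell (sum 3386), T and NK cell (569), granulocyte, erythroid, macrophage and stromal marker lists were all highest in the same BM GFP+ library. The megakaryocyte and platelet, hepatocyte and endothelial lists were not. The part of any of these cells in this value was not tested.

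*Smad3* was 2.66-fold lower in BM GFP+ and 1.99-fold lower in BM GFP- cells than in the FL, the latter just under the threshold and past it with equal totals or equal upper quartiles. *Smad2* was 3.46-fold lower in the BM in the GFP+ fraction, and in GFP- cells it was 1.27-fold higher in the BM, a direction that turned when libraries were rescaled to equal totals (log2 difference 0.28, then −0.07). *Smad7* was 2.34-fold higher in BM GFP- than in FL GFP- cells, from levels of 0.489 and 1.14, and this passed neither 2-fold with equal totals nor 2-fold on the FPKM + 1 scale. *Skil* was 4.19-fold and 1.66-fold higher in the BM, and *Ski* 1.81-fold and 9.98-fold lower, the former past 2-fold with equal totals.

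**Figure D3:**
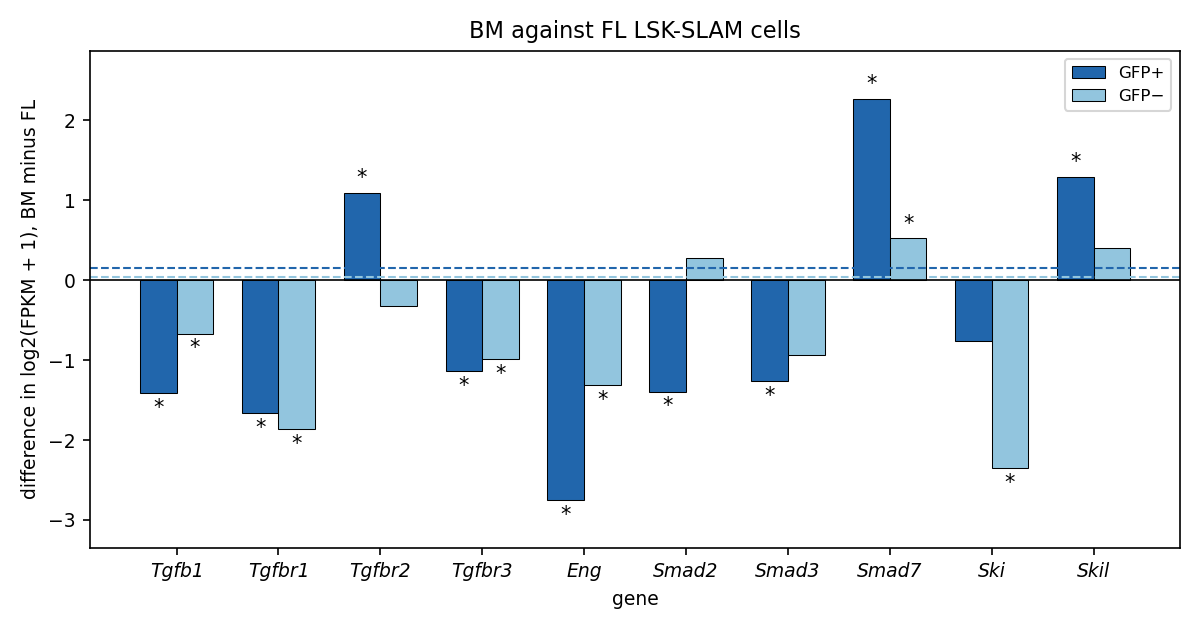
Difference in log2(FPKM + 1), BM minus FL, for each gene in GFP+ cells (dark bars) and GFP- cells (light bars), each from 1 library per group. Asterisks mark genes whose FPKM was more than 2-fold apart, and dashed lines give the median of all genes measured, 0.15 in GFP+ and 0.04 in GFP- cells. *Eng* has the longest bar, at −2.75 in GFP+ cells, and *Smad7* and *Skil* point upwards in both fractions.

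The median difference of the 10 genes on the log2(FPKM + 1) scale was −1.20 in GFP+ and −0.80 in GFP- cells, against 0.15 and 0.04 over all genes measured. Rescaling to equal FPKM totals moved both together, to −1.62 and −1.17 for the 10 genes and to −0.42 and −0.36 for all genes. It also lowered the share of higher calls among all genes past 2-fold from 57.2% to 39.7% in GFP+ and from 49.0% to 30.4% in GFP- cells. The only test that the design allows takes the fractions as the repeats of the tissue contrast, in a limma model of log2(FPKM + 1) with the GFP fraction as a covariate and 1 residual degree of freedom per gene. It called 288 of 11707 genes (2.46%) at an adjusted p under 0.05, and none of the 10 genes (0 of 10). The smallest limma value was that of *Eng*, with a log2 difference of −2.03 (SE 0.43, adjusted p = 0.052, lower in the BM in both fractions), and its adjusted p ranged from 0.034 to 0.32 over the alternatives, under 0.05 with equal totals and with equal upper quartiles. *Tgfbr1* followed with −1.76 (SE 0.84, limma adjusted p = 0.33, range 0.22 to 0.50), and among the 10 genes *Eng* was the only gene with an unadjusted p under 0.05, as were 17.2% of all genes.

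Ratios within a library do not depend on how libraries were scaled to each other. The FPKM of *Tgfbr2* over that of *Tgfbr1* was 0.983 (GFP+) and 1.22 (GFP-) in fetal liver and 7.80 (GFP+) and 4.29 (GFP-) in marrow. The type II and type I receptor transcripts were thus near equal in both FL libraries and unequal in both BM libraries. *Ski* exceeded *Skil* 13.7-fold (GFP+) and 8.78-fold (GFP-) in fetal liver, and in marrow the ratio was 1.80 (GFP+) and 0.528 (GFP-). All but the BM GFP+ ratio rest on a value under an FPKM of 1, *Skil* in the FL (0.829 and 0.955) and *Ski* in BM GFP- (0.840). The FPKM of *Smad3* over *Smad2* was 5.89 in FL GFP- and between 2.07 and 2.68 in the other libraries. *Eng* over *Tgfbr3* ranged from 10.4 in BM GFP+ to 26.8 in FL GFP+ cells.

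The sum of *Smad2* and *Smad3* was set against that of *Smad1* and *Smad5*, the transducers of the BMP branch. The ratio was 10.2 in BM GFP+ and between 1.76 and 2.76 in the other libraries. In BM GFP+ cells *Smad2* and *Smad3* summed to an FPKM of 7.20 and *Smad1* and *Smad5* to 0.707, and each sum was the lowest of the 4 libraries. Both *Smad1* (0.577) and *Smad5* (0.130) were there under an FPKM of 1, so that the ratio of 10.2 rests on low values.

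**Figure D4:**
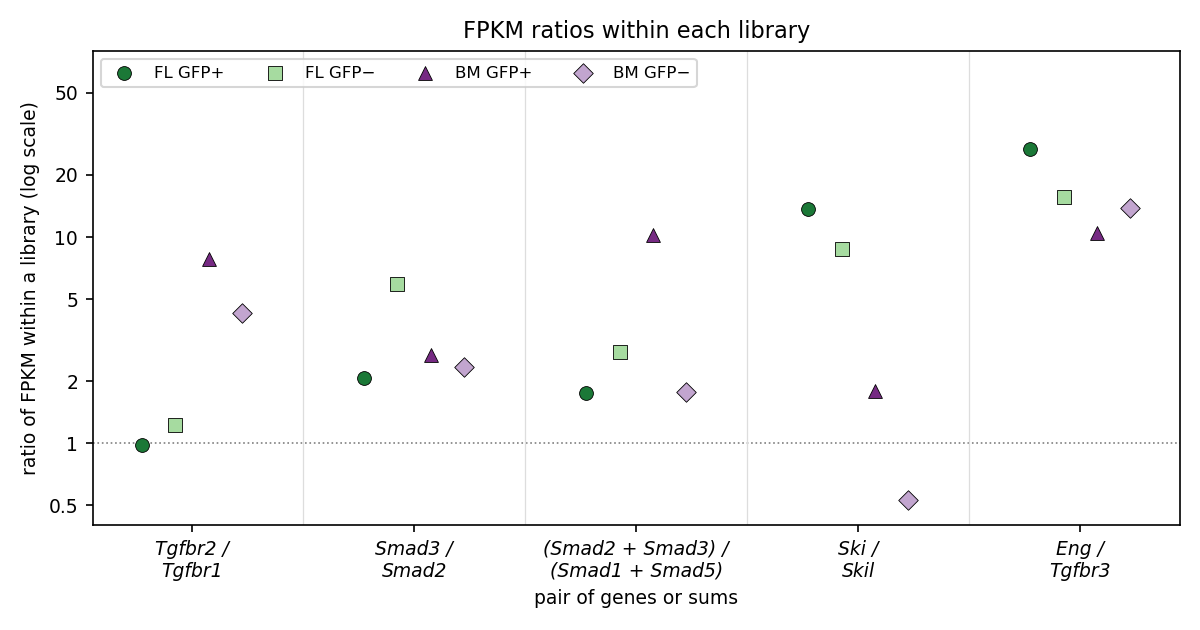
Ratios of FPKM within each library (log scale), 1 point per library, for pairs of genes of the branch and for summed Smad genes. *Tgfbr2* over *Tgfbr1* lies at 0.983 and 1.22 in the FL libraries and at 7.80 and 4.29 in the BM libraries.

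Whether the branch differs with BMP activation was asked by comparing GFP+ with GFP- cells in each tissue. Of the 8 genes that reached an FPKM of 1 in either FL library none was past 2-fold (0 of 8), where 44.7% of 12134 genes were past it (17.9% higher and 26.8% lower in GFP+), and with an FPKM of 5 required the counts were 0 of 7 and 35.3%. *Smad3* came nearest, 1.80-fold lower in FL GFP+ cells and past 2-fold with equal totals or upper quartiles, followed by *Smad2*, 1.59-fold higher. *Tgfbr2* and *Tgfb1* differed by 1.02-fold and 1.03-fold, *Tgfbr1* by 1.22-fold, *Eng* by 1.23-fold, *Ski* by 1.35-fold and *Tgfbr3* by 1.40-fold. *Smad7* and *Skil*, both under an FPKM of 1 in both FL libraries, were left out of this count, and without that filter *Smad7* (0 against 0.489) was past 2-fold.

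In the BM 8 of the 10 genes were past 2-fold between the fractions, 4 higher and 4 lower in GFP+ cells, where 40.7% of 12385 genes were past it (21.1% higher, 19.6% lower). With an FPKM of 5 required, 5 of 5 genes and 33.3% of all genes were. With folds on FPKM + 1 the count was 6 of 10, 3 in each direction, against 34.1% of all genes. *Tgfb1* and *Skil* were not among these 6. *Ski* was 7.45-fold, *Smad7* 3.35-fold and *Skil* 2.19-fold higher in BM GFP+ than in BM GFP- cells, and the fourth was *Tgfbr2*, at 2.75-fold. Lower in BM GFP+ cells were *Smad2* by 2.77-fold, *Smad3* by 2.41-fold, *Eng* by 2.25-fold and *Tgfb1* by 4.01-fold. *Tgfbr1* (1.51-fold higher) and *Tgfbr3* (1.70-fold lower) were not past the threshold.

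The BM GFP+ library enters all of these differences, and the BM comparison has no value without it. In the same comparison 9 of the 10 stem cell and sort markers were past 2-fold lower in GFP+ cells, and past 2-fold higher were 6 of 7 B cell, 5 of 8 granulocyte, 5 of 7 erythroid, 5 of 7 T and NK cell and 5 of 6 macrophage markers that could be compared. The part of these cells in the differences of the 10 genes was not tested. With equal FPKM totals *Skil* was no longer past 2-fold and *Tgfbr3* was past it, and the share of higher calls over all genes went from 51.8% to 32.1% in the BM and from 40.1% to 29.2% in the FL.

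**Figure D5:**
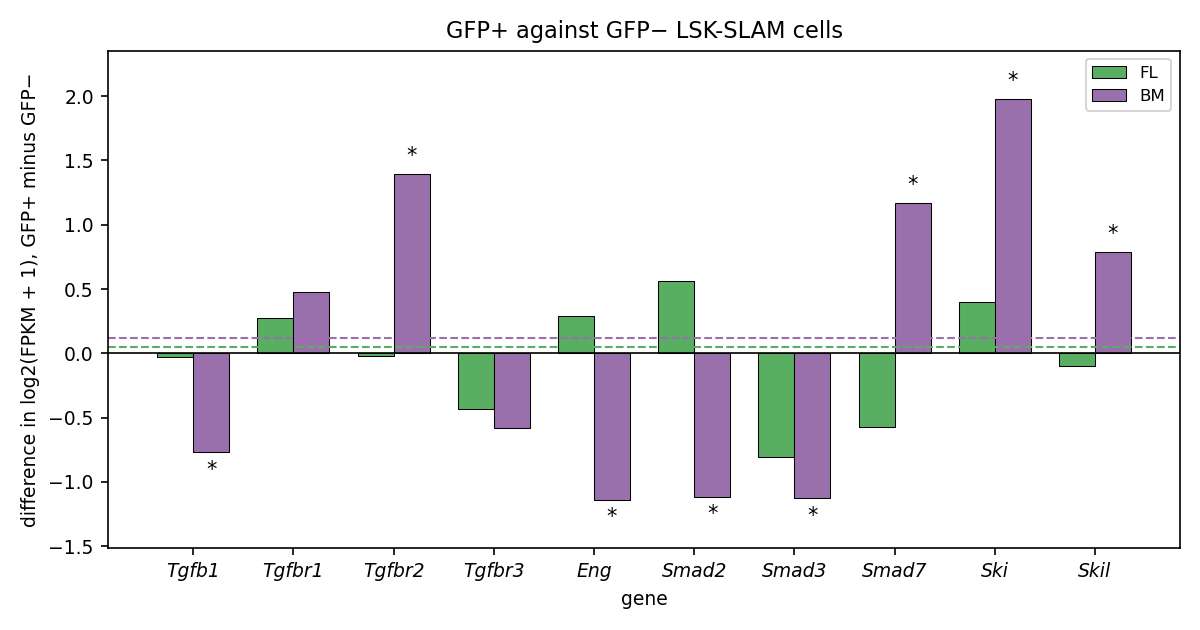
Difference in log2(FPKM + 1), GFP+ minus GFP-, for each gene in FL (green bars) and BM (purple bars), each from 1 library per group. Asterisks mark genes more than 2-fold apart in FPKM, all of them in the BM, and dashed lines give the median of all genes measured, 0.05 in FL and 0.12 in BM.

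Of the 10 genes none was past 2-fold in the same direction in both tissues (0 of 8 measured in both), where 3.45% of 10910 genes were past it higher and 6.48% lower in GFP+ cells. In sign alone, *Smad3*, *Tgfbr3* and *Tgfb1* were lower and *Ski* and *Tgfbr1* higher in the GFP+ library of each tissue. The share of all genes with the same sign in both tissues was not computed. The limma model with tissue as a covariate called 13 of 11707 genes (0.111%) and none of the 10 genes (0 of 10), of which none had an unadjusted p under 0.05, against 6.25% of all genes. The limma adjusted p of the 10 genes lay between 0.97 and 0.99, and the largest log2 differences were 1.19 for *Ski* (SE 0.94, adjusted p = 0.97) and −0.97 for *Smad3* (SE 0.72, adjusted p = 0.97), whose adjusted p over the alternatives was at least 0.90 and 0.81.

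Beyond the 10 genes, 48 further genes of the pathway were examined in 6 lists. In BM against FL cells, 10 of 30 that could be compared were past 2-fold higher and 11 lower in the GFP+ fraction, and of 33 in the GFP- fraction 6 were higher and 13 lower. Over all genes 33.6% were higher and 25.1% lower in the former comparison, and 18.6% and 19.3% in the latter. Between GFP+ and GFP- cells, 6 of 32 were higher and 13 lower in the FL, and 9 of 29 higher and 8 lower in the BM, where the shares over all genes were 17.9% and 26.8% (FL) and 21.1% and 19.6% (BM). The median log2(FPKM + 1) difference of these genes was 0.34, −0.43, −0.11 and 0.38 in the same order of comparisons, against 0.15, 0.04, 0.05 and 0.12 over all genes. Of the other ligands (8), *Inha* and *Inhba* alone reached an FPKM of 1 in any library. Of the genes for binding and activation of latent TGF-β (11), *Lrrc32*, whose product tethers latent TGF-β to the cell surface, was past 2-fold lower in GFP+ cells of both tissues. It read 0.0234 FPKM against 11.1 in FL GFP-, and 0 against 1.44 in BM GFP-.

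Of the activin and ALK1 receptor genes (5), *Acvrl1*, the gene of the ALK1 receptor with which endoglin acts in endothelium, was at 0 (GFP+) and 0.0954 (GFP-) FPKM in fetal liver and 10.9 (GFP+) and 1.98 (GFP-) in marrow, the opposite order to *Eng*. *Smad4*, the partner that Smad2 and Smad3 share with the BMP branch, had 0.496 (GFP+) and 2.39 (GFP-) in fetal liver and 3.80 (GFP+) and 0.933 (GFP-) in marrow and differed in opposite directions between the fractions of the tissues. Of 11 further negative regulators, 10 could be compared in the FL, where 2 were past 2-fold higher and 5 lower in GFP+ cells. Of 8 compared in the BM, 1 was higher and 4 were lower. Over all genes, 17.9% (FL) and 21.1% (BM) were higher, and 26.8% and 19.6% lower. *Nedd4l*, a ubiquitin ligase that acts on activated Smad2 and Smad3, was past 2-fold higher in GFP+ cells of both tissues, with 2.48 against 1.03 in the FL and 5.53 against 1.004 in the BM. *Bambi*, a decoy receptor gene, was past 2-fold lower in GFP+ cells of both, with 0.0145 against 1.20 and 1.31 against 4.49. Of the 6 corepressor partners of Ski no gene was past 2-fold in the same direction in both tissues or both fractions.

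Of a further 11 genes known as TGF-β targets, of which 7 could be compared between tissues, 4 were past 2-fold higher in the BM in each fraction, and 2 (GFP+) and 1 (GFP-) were lower, where over all genes 33.6% (GFP+) and 18.6% (GFP-) were higher and 25.1% and 19.3% lower. Over all genes, 17.9% (FL) and 21.1% (BM) were past 2-fold higher in GFP+ than in GFP- cells, and 26.8% and 19.6% lower. Of the targets, 2 were higher and 1 lower in GFP+ cells of each tissue, out of 6 (FL) and 7 (BM) compared. Among them the cell cycle inhibitor *Cdkn1c*, which is tied to HSC quiescence, read 16.1 (GFP+) and 14.2 (GFP-) FPKM in fetal liver and 7.14 (GFP+) and 6.17 (GFP-) in marrow, 2.25-fold and 2.29-fold lower in the BM. *Tgfbi*, an extracellular matrix gene named for its induction by TGF-β, was higher in GFP+ cells of both tissues, with 56.2 against 22.7 in the FL and 52.4 against 20.8 in the BM. *Cdkn1a*, another cell cycle inhibitor, was lower in GFP+ cells of both, with 0.230 against 2.06 in the FL and 3.26 against 8.24 in the BM. By the same values *Cdkn1a* was past 2-fold higher in the BM in both fractions, the opposite order to *Cdkn1c*. *Jun*, *Junb* and *Bhlhe40*, which many other signals also induce, were past 2-fold higher in the BM in both fractions, as with 744 and 379 against 30.8 and 12.5 for *Junb*.

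The genes whose 4 values were most like those of the receptors were sought among 10566 genes that reached an FPKM of 5 in any library, by the root mean square difference of log2(FPKM + 1) values centred on their mean over the 4 libraries. For *Tgfbr1* they were *Tctn2* (0.031), *Serpinb6b* (0.056) and *Polrmt* (0.071), and for *Tgfbr2* they were *Dennd4a* (0.058), *Iqgap1* (0.061) and *Abhd5* (0.061). With 4 points and so many genes such closeness is a description only.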

How the data were processed

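RNA of FL (embryonic day 14) and adult BM LSK-SLAM cells, 1 library per group, was made into SMARTer libraries by the authors. The deposited FPKM values were computed by the authors with TopHat, Cufflinks 2.2.1 and Cuffnorm (geometric library-size normalization, after fragment-bias and multi-read correction). The methods name NCBI37/mm9 and the submitters' processing notes mm10. The files hold symbols only, and coordinates printed are RefSeq ones of GRCm38.p6. Groups follow the labels. Read counts were not used here. Among genes under an FPKM of 0.08, ratios to BM GFP- values clustered in steps, most often at 1.09 (FL GFP+), 0.856 (FL GFP-) and 1.65 (BM GFP+), as when 1 fragment weighs differently by library.

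Differences are past 2-fold in FPKM, among genes that reach 1 FPKM in either library compared. The test was limma 3.58.1 in R 4.3.3 (lmFit, eBayes with trend) on log2(FPKM + 1), which understates changes of low genes, for genes of at least 1 FPKM in at least 2 libraries, with tissue and GFP fraction as terms and Benjamini-Hochberg adjustment over all genes. Both steps were run on simulated data with large set changes and little noise, which checks the code and not how well the steps suit these data. Other steps used Python 3.11.15, numpy 2.4.6, pandas 2.3.3 and matplotlib 3.10.9. Promoter sequences were found for *Tgfb1*, *Tgfbr1*, *Tgfbr2*, *Eng*, *Smad3* and *Ski* in RefSeq. The 10 genes and all lists were chosen with earlier results of these data known. Named are the 10 genes, *Smad4*, *Smad1*, *Smad5*, *Id1*, *Id2*, *Id3*, *Cdkn1c*, and per further list up to 4 genes of highest FPKM (at least 5) past 2-fold in one direction in both tissues or both fractions. *Inha*, *Inhba*, *Procr*, *Bmpr2*, *Bmpr1a*, *Acvr1*, *Bambi*, *Cdkn1a* and the endothelial markers were named after their values were seen. Alternatives were other scalings, folds, filters and pseudocounts, and limma without the trend or the second term.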

Additional observations from a re-analysis of the deposited data

Results flagged for a closer look

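Between GFP+ and GFP- cells, 5 of the 10 genes differed in opposite directions in FL and BM, by sign alone. The share of all genes that did so was not computed, so the count cannot be read as particular to the branch. In the FL, *Tgfbr2* differed by only 1.02-fold, and *Smad7* and *Skil* were under an FPKM of 1 in both libraries. On the log2(FPKM + 1) scale, GFP+ minus GFP-, *Tgfbr2* was at −0.0235 in fetal liver and 1.40 in marrow, and *Eng* at 0.293 and −1.14. *Smad2* was at 0.561 and −1.12, *Smad7* at −0.574 and 1.17, and *Skil* at −0.096 and 0.789. Between BM and FL, 2 genes differed in opposite directions in the fractions, again without a share over all genes to set beside them. The BM minus FL difference of *Tgfbr2* was 1.09 in GFP+ and −0.328 in GFP- cells, and that of *Smad2* was −1.39 in GFP+ and 0.284 in GFP- cells, the latter −0.07 with equal FPKM totals. With 1 library per group none of these differences between contrasts was tested, and the BM GFP+ library enters every one of them.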

How the results depend on the processing

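The number of the 10 genes past 2-fold in the FL went from 0 to 1 with equal FPKM totals or equal upper quartiles (*Smad3* in each case), to 1 with no filter on low FPKM (*Smad7*) and to 2 at 1.5-fold. The shares over all genes at these settings were 44.5%, 43.6%, 54.9% and 61.6%. In the BM the number went from 8 to 2 at 4-fold and to 5 with an FPKM of at least 5, which left 5 genes to compare. The shares over all genes were 20% and 33.3%. For BM against FL the number went from 9 to 4 at 4-fold in GFP+ cells, where 37.9% of all genes were past it. In GFP- cells it went from 6 to 2 at 4-fold (18.1% of all genes) and to 3 with the fold on FPKM + 1 (29.9%). At 4-fold the counts in the BM and in both tissue comparisons were thus near the shares over all genes. The limma count for GFP went from 13 to 1 with a pseudocount of 0.1, to 4 without tissue as a term and to 0 without the trend, where 685 genes had an unadjusted p under 0.05. That for tissue went from 288 to 80 with a pseudocount of 0.1, to 189 with no filter on low FPKM, to 176 without the GFP term and to 0 without the trend, where 1581 genes had an unadjusted p under 0.05. With equal totals and with equal upper quartiles limma called 1 of the 10 genes for tissue, *Eng* (adjusted p = 0.044 and 0.034). The causes were not tested. Of 40 gene differences, the direction turned in 1, *Smad2* between BM and FL GFP- cells, with equal totals. Of the limma effects of the 10 genes 2 turned, that of GFP on *Smad7* (0.30, and −0.45 with a pseudocount of 0.1) and that of tissue on *Tgfbr2* (0.38, and −0.13 with equal totals). The terms of the limma model pair the fractions by tissue and the tissues by fraction, and with 1 library per group no other pairing was possible. Whether the fractions of a tissue came from the same animals is not given in the labels. Leaving out a library leaves no residual degree of freedom. Without read counts per gene, the precision of FPKM near or below 1 (*Smad7*, *Skil*, *Tgfb1*, and *Ski* in BM GFP- cells) was not estimated.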

Other observations

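Genes of the BMP branch, which the GFP reporter reads, were set beside the TGF-β branch. *Id1*, a direct BMP target, read 109 (GFP+) and 56.5 (GFP-) FPKM in fetal liver and 70.4 (GFP+) and 17.5 (GFP-) in marrow, 1.93-fold and 4.03-fold higher in the GFP+ library. *Id3* had 96.6 (GFP+) and 97.0 (GFP-) in fetal liver, a 1.005-fold difference, and 119.8 and 46.6 in marrow, 2.57-fold higher in GFP+ cells. *Id2* had 11.0 (GFP+) and 9.95 (GFP-) in fetal liver, against 132 and 23.5 in marrow. *Smad5*, a BMP transducer, had 11.8 (GFP+) and 9.88 (GFP-) in fetal liver, against 0.130 and 4.28 in marrow. *Smad1*, another, had 0 (GFP+) and 0.779 (GFP-) in fetal liver, against 0.577 and 5.90 in marrow. Of the BMP receptor genes, *Bmpr2* had 0.120 (GFP+) and 2.02 (GFP-) in fetal liver, against 0.0381 and 0.251 in marrow, and *Bmpr1a* and *Acvr1* were at 0 in both GFP+ libraries and at or below 0.347 and 0.466 in the GFP- ones. The study reports *Bmpr* genes as expressed in GFP+ cells of both tissues and not in GFP- cells, which is the reverse of these receptor values. The reason for this conflict was not tested. With 1 library per group the differences of the BMP branch genes have no replicate check.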
